A study of Mus musculus with 12 samples.

Results

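Axon guidance ligands and receptors were followed across the mouse medial prefrontal cortex (mPFC) of 2 inbred strains. They comprise the semaphorins with their plexins and neuropilins, the ephrins with the Eph receptors, the Slits with the Robos, and the netrins with Dcc, the Unc5 receptors and Draxin. Members were chosen by gene symbol. In the GENCODE M21 annotation, 74 protein-coding genes carry such a symbol. Of these, 71 stand among the 17283 genes of the deposited table, and Epha1, Ntn3 and Unc5cl were not analysed here. A filter on low values left 68 members to test among 13586 genes, and Draxin, Efna4 and Epha2 did not pass it. Unc50 matched by its letters only, since it encodes a protein of the endoplasmic reticulum and Golgi and not a netrin receptor. Without it 70 guidance genes were in the table.

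As background, guidance molecules steer growing axons by attraction or repulsion, and many remain expressed in the adult cortex, at synapses and along blood vessels. Most secreted class 3 semaphorins act through neuropilins joined to A-type plexins, while membrane-bound semaphorins bind plexins directly. Ephrins on one cell bind Eph receptor tyrosine kinases on its neighbour, Slits repel axons through Robos, and netrins attract axons through Dcc and repel them through the Unc5 receptors. Several of these systems guide axons across the midline into the corpus callosum. BTBR mice are known to lack that tract and to carry a short deletion in Draxin, which encodes a secreted guidance protein that binds Dcc.

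Each of the 4 groups held 3 libraries. C57 mice, labelled wild type, received either DMSO as solvent control (C57 vehicle) or astragaloside IV (C57 ASIV), a saponin of Astragalus root. BTBR mice, labelled as an inbred strain, received the same solvent (BTBR vehicle) or the same compound (BTBR ASIV). Injections were intraperitoneal over 7 days in all 4 groups. Dose, age, sex and the number of animals behind a library were not given in the sources used here, so the p-values measure only the spread between these libraries. The stated purpose was to learn whether ASIV helps neurotransmission in BTBR, a strain used as a model of autism.

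Levels are FPKM, the fragments per kilobase of exon scaled to the fragments of the library, so that levels can be set side by side between genes. Differences are on the log2(FPKM + 1) scale with the standard error of a limma model over all 12 libraries. A gene was called at a Benjamini-Hochberg adjusted p under 0.05 over all genes tested. The depth was 16166327 to 18660041 fragments per library, and 1 fragment on 1 kb of exon corresponds to 0.0536 to 0.0619 FPKM. Over all genes, a first principal component with 54.0% of the variance placed BTBR vehicle (36.9 to 47.8) apart from BTBR ASIV (-4.13 to 2.25) and from both C57 groups (-23.7 to -13.8). Fragments of the mitochondrial genome made up 0.614 to 1.16% of each BTBR vehicle library and 3.50 to 5.42% of the other libraries. The mean variance of the members was 0.0566 within BTBR vehicle, 0.0508 within BTBR ASIV, 0.0206 within C57 vehicle and 0.0291 within C57 ASIV. Over all genes tested it was 0.0642, 0.05, 0.0226 and 0.0376 in the same order. Cortical excitatory markers were present in every library, with summed levels of 816.2 to 1154.9 FPKM over 12 genes, of which Foxp2 had a mean under 1 FPKM. Markers of striatal neurons, a tissue next to the dissected region, summed to between 75.5 and 519.9 FPKM over 10 genes and varied within every group. In bulk tissue, fewer cells of a type and less RNA per cell cannot be told apart.

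Most guidance genes were expressed at low to moderate levels. Of the 71 members, 18 had a mean of at least 10 FPKM over the 12 libraries, 46 a mean of 1 to 10 FPKM and 7 a mean under 1 FPKM. Their median was 4.04 FPKM, beside 3.89 FPKM over all genes of the table. Several families were led by 1 or 2 genes. Sema6b, a transmembrane semaphorin, ranged from 52.5 to 75.6 FPKM over the 12 libraries, and Sema7a, which is anchored to the membrane by a lipid, from 42.5 to 69.9 FPKM. Ephb6, an Eph receptor without kinase activity, ranged from 27.4 to 54.0 FPKM, Unc5a, a netrin receptor, from 30.3 to 46.5 FPKM, and Efnb3, a transmembrane ephrin of midline tissue, from 24.1 to 39.3 FPKM. Of the plexins, Plxnb1, a receptor for Sema4d, ranged from 9.73 to 27.1 FPKM and had the highest mean in both BTBR groups, while Plxnd1 had it in both C57 groups. Slit1 had the highest mean of the Slits and Robos in each group, with 11.5 to 25.98 FPKM. By the mean over all 12 libraries, the lowest tested members of the families were Sema3b (0.304 to 1.43 FPKM), Nrp1 (1.63 to 2.38 FPKM), Efna1 (0.875 to 2.39 FPKM), Epha3 (0.462 to 1.28 FPKM), Slit2 (0.880 to 1.74 FPKM) and Ntn5 (0.299 to 1.84 FPKM).

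**Figure D1:**
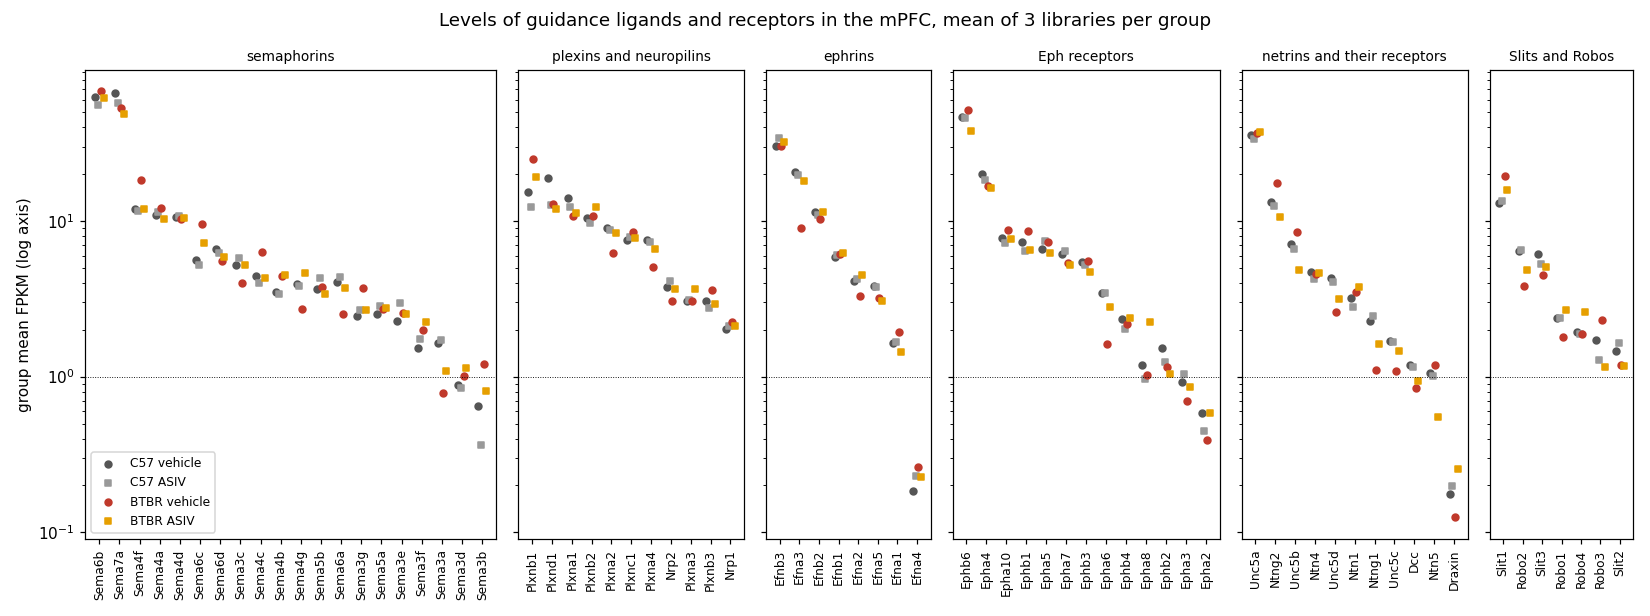
Mean FPKM of the 70 guidance genes in the table (log axis), 1 panel per family, with genes ordered by their mean over all libraries; each symbol is the mean of 3 libraries of a group and the dotted line marks 1 FPKM. Within most genes the 4 group means lie close together, whereas Efna3 in BTBR vehicle (9.08 FPKM) lies apart from the other 3 groups (18.1 to 20.6 FPKM).

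The members that did not pass the filter stayed below 1 FPKM in every library. Draxin gave 16, 14 and 17 fragments in C57 vehicle, 15, 16 and 23 in C57 ASIV, 23, 1 and 10 in BTBR vehicle, and 49, 5 and 19 in BTBR ASIV. Its level stayed between 0.0113 and 0.511 FPKM, the groups overlapped, and no difference was detectable at this depth. A gene-level value does not show whether the deleted bases were present in the transcripts. Efna4 ranged from 0.0345 to 0.503 FPKM (1 to 13 fragments) and Epha2 from 0.260 to 0.780 FPKM (22 to 66 fragments).

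Vehicle-treated BTBR mice were compared with vehicle-treated C57 mice to learn how these genes differ between the strains without the compound. Of the 68 members tested, 7 were higher and 15 lower in BTBR. That is 32.4% of the members, and 43.1% of all genes tested were called in this comparison (22.3% higher, 20.8% lower). The share was therefore not above the background, while the balance leaned to lower values. The median log2 difference of the members was -0.01, beside 0.01 over all genes. In 25 members (36.8%) the 3 values of one strain did not overlap those of the other, against 53.3% of all genes. By role, 6 of 35 ligands were higher and 8 lower (40% called), and 1 of 32 receptors was higher and 7 lower (25% called).

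Among the ephrins, Efna3 had the largest difference of any member. Efna3 encodes a lipid-anchored ephrin that binds EphA receptors and lies on chromosome 3 from 89313899 to 89322965 (mm10). It measured 22.1, 20.7 and 19.0 FPKM in C57 vehicle and 9.13, 9.62 and 8.49 FPKM in BTBR vehicle. All 3 BTBR libraries lay below 10 FPKM and all 3 C57 libraries at or above 19.0 FPKM. The log2 difference was -1.10 ± 0.11 (SE, limma, adjusted p = 1.62e-05). Its neighbours on the chromosome were not called. Efna1, 32.8 kb away, stood at 1.65 ± 0.41 FPKM in C57 vehicle and 1.93 ± 0.42 FPKM in BTBR vehicle (SD, n = 3), a log2 difference of 0.14 ± 0.18 (limma, adjusted p = 0.543). Efna4, 10.4 kb away, did not pass the filter. The other ephrins tested were not called, with log2 differences from -0.28 (Efna2) to 0.14 (Efna1). Efna2 was called lower in some alternative fits. These included correction for exon length and GC content (-0.39, limma, adjusted p = 0.0385) and array weights (-0.38, adjusted p = 0.0314). An antisense gene, Gm15998, shares 14.1% of the exon bases of Efna3, and the strand of counting was not given in the sources used here.

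Epha6 was the 1 Eph receptor of 12 to be called (8.3%, beside 43.1% of all genes). This receptor of A-type ephrins measured 3.45, 4.06 and 2.85 FPKM in C57 vehicle and 1.04, 2.25 and 1.58 FPKM in BTBR vehicle. The groups did not overlap, and the log2 difference was -0.78 ± 0.19 (limma, adjusted p = 0.00608). The most abundant receptors of the family showed no call. Ephb6 had 46.3 ± 7.25 FPKM in C57 vehicle and 51.9 ± 2.99 FPKM in BTBR vehicle, and Epha4, which binds ephrins of both types, had 20.2 ± 2.02 and 16.7 ± 3.16 FPKM (SD, n = 3).

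Among the 11 plexins and neuropilins, 4 plexins were lower and 1 was higher (45.5% called, beside 43.1% of all genes). The A-type plexins, which transduce class 3 and class 6 semaphorin signals, contributed 3 of the lower genes. Plxna2 measured 9.55, 9.11 and 8.38 FPKM in C57 vehicle against 5.93, 6.88 and 5.79 FPKM in BTBR vehicle. Plxna4 measured 7.28, 8.10 and 7.11 FPKM against 4.57, 6.32 and 4.23 FPKM. Neither gene overlapped between strains, and their log2 differences were -0.48 ± 0.09 (limma, adjusted p = 0.00113) and -0.51 ± 0.12 (adjusted p = 0.0054). Plxna1 differed less, at -0.35 ± 0.11 (limma, adjusted p = 0.024). The remaining A-type plexin, Plxna3, had 3.07 ± 0.22 and 3.08 ± 0.26 FPKM (SD, n = 3) and was not called.

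Plxnd1, the receptor of Sema3e with a known role in vessels, measured 20.3, 16.4 and 19.6 FPKM in C57 vehicle and 11.8, 14.6 and 12.02 FPKM in BTBR vehicle. Its groups did not overlap, with a log2 difference of -0.52 ± 0.11 (limma, adjusted p = 0.00218). Its ligand Sema3e was not called (2.29 ± 0.45 and 2.57 ± 0.40 FPKM; SD, n = 3). Summed endothelial markers were 114.5 to 132.8 FPKM in C57 vehicle and 124.9 to 171.0 FPKM in BTBR vehicle, with none of the 10 genes at a mean under 1 FPKM. Of these markers 2 were called higher and 2 lower (40%, beside 43.1% of all genes). Their part in the value of Plxnd1 was not tested.

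Plxnb1 moved the other way. It measured 14.1, 15.1 and 16.6 FPKM in C57 vehicle and 25.6, 22.1 and 27.1 FPKM in BTBR vehicle. The lowest BTBR value exceeded the highest C57 value, and the log2 difference was 0.67 ± 0.13 (limma, adjusted p = 0.00166). Sema4d, its ligand, showed no call and had 10.5 ± 0.41 and 10.3 ± 1.02 FPKM (SD, n = 3). Plxnb2 and Plxnb3, the other B-type plexins, were not called. Plxnb3, a gene of oligodendrocytes, measured 4.40, 2.21 and 4.20 FPKM in the 3 BTBR vehicle libraries, and the myelin marker sum was 1594, 735.9 and 1226.2 FPKM in the same libraries. The library with the lowest Plxnb3 was thus the one with the lowest marker sum, and the part of oligodendrocyte content was not tested.

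Semaphorins went both ways, with 5 of 20 higher and 5 lower (50% called, beside 43.1% of all genes). In class 4, Sema4f, a transmembrane semaphorin of synapses, measured 12.9, 11.1 and 11.8 FPKM in C57 vehicle and 16.5, 21.4 and 17.4 FPKM in BTBR vehicle. Sema4c, a ligand of Plxnb2, measured 4.50, 4.18 and 4.55 FPKM against 6.04, 6.36 and 6.67 FPKM. Both were higher in all 3 BTBR libraries than in any C57 vehicle library, with log2 differences of 0.58 ± 0.10 (limma, adjusted p = 0.000672) and 0.44 ± 0.10 (adjusted p = 0.00393). Sema4g was lower (-0.39 ± 0.15, limma, adjusted p = 0.0455), but its groups overlapped.

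In class 6, Sema6a, which binds Plxna2 and Plxna4, measured 3.86, 4.36 and 3.99 FPKM in C57 vehicle and 2.80, 2.27 and 2.54 FPKM in BTBR vehicle. The groups were separate and the log2 difference was -0.52 ± 0.09 (limma, adjusted p = 0.000677). Thus this ligand and both of its receptors were lower in the same strain. Sema6d was also lower, by a small amount (-0.22 ± 0.08, limma, adjusted p = 0.0459), and Sema6c was higher (0.63 ± 0.23, adjusted p = 0.0413). The Sema6c value rested partly on 1 library, since the BTBR vehicle libraries had 7.81, 7.02 and 13.9 FPKM and the difference without the third was 0.35 (adjusted p = 0.161).

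Of the secreted class 3 semaphorins, most of which bind neuropilins, Sema3a was lower. It measured 1.65, 1.81 and 1.48 FPKM in C57 vehicle and 0.693, 0.929 and 0.749 FPKM in BTBR vehicle. No BTBR value reached 1 FPKM and no C57 value fell below it, and the log2 difference was -0.56 ± 0.11 (limma, adjusted p = 0.00189). Its receptor component Nrp1 was not called, with 2.04 ± 0.18 and 2.24 ± 0.06 FPKM (SD, n = 3). Sema3b and Sema3g were higher, by 0.43 ± 0.14 each (limma, adjusted p = 0.0268 and 0.0226). Sema3g, a semaphorin of endothelial cells, had 3.60, 2.90 and 4.66 FPKM in BTBR vehicle, where the endothelial marker sum was 171.0, 124.9 and 137.6 FPKM. The part of endothelial content was not tested. Sema7a, which signals through integrins and Plxnc1, was lower (66.5 ± 4.82 against 53.5 ± 4.03 FPKM, SD, n = 3) by a log2 difference of -0.31 ± 0.10 (limma, adjusted p = 0.03).

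Slits and Robos gave 1 higher and 2 lower genes of 7 (42.9% called, beside 43.1% of all genes). Robo2, a Slit receptor, measured 7.18, 6.68 and 5.43 FPKM in C57 vehicle and 3.10, 5.36 and 3.03 FPKM in BTBR vehicle. The nearest values of the 2 strains, 5.43 and 5.36 FPKM, almost met, and the log2 difference was -0.65 ± 0.18 (limma, adjusted p = 0.013). Slit3 was lower (-0.39 ± 0.10, limma, adjusted p = 0.0075) and Slit1 was higher (0.51 ± 0.16, adjusted p = 0.0234), the latter with overlapping groups. Slit1 measured 14.6, 18.1 and 25.98 FPKM in BTBR vehicle, and without the highest of these the difference was 0.29 (limma, adjusted p = 0.0821).

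Netrins and their receptors included 2 lower genes of 10 (20% called, beside 43.1% of all genes). Ntng1, a lipid-anchored netrin-G of synaptic adhesion, measured 2.08, 2.60 and 2.14 FPKM in C57 vehicle and 0.858, 1.60 and 0.840 FPKM in BTBR vehicle. Unc5d, a repulsive receptor, measured 4.67, 4.10 and 4.10 FPKM against 2.61, 3.51 and 1.68 FPKM. Groups were separate for both, with log2 differences of -0.66 ± 0.17 (limma, adjusted p = 0.00835) and -0.59 ± 0.16 (adjusted p = 0.0125). Without the third BTBR vehicle library Unc5d stood at -0.39 (limma, adjusted p = 0.0475). In Robo2, Ntng1, Unc5d, Plxna4 and Epha6 the second BTBR vehicle library was the highest of the 3.

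None of the 9 tested genes on a short list of genes with a known part in midline crossing was called by this model. Over all genes tested, 43.1% were called in this comparison. The list was picked by hand and does not hold every member with a part in midline crossing. Dcc had 1.19 ± 0.19 FPKM in C57 vehicle and 0.843 ± 0.20 FPKM in BTBR vehicle (SD, n = 3), a log2 difference of -0.25 ± 0.14 (limma, adjusted p = 0.16). Its ligand Ntn1 had 3.21 ± 1.07 and 3.51 ± 0.76 FPKM. For Slit2 (-0.19), Robo1 (-0.29), Sema3c (-0.31), Epha4 (-0.27), Efnb3 (-0.02), Nrp1 (0.10) and Ephb1 (0.19) the adjusted p ran from 0.11 to 0.913. Without the second BTBR vehicle library, 3 of them were called lower: Slit2 (-0.36, adjusted p = 0.0186), Robo1 (-0.45, adjusted p = 0.0165) and Epha4 (-0.41, adjusted p = 0.0113). These values do not show that the strains are alike in the genes that were not called. With libraries corrected for exon length, GC content and gene length, Ephb1 was called higher (0.41, adjusted p = 0.0233). Over all families, the 46 members not called ranged from -0.37 (Unc5c) to 0.37 (Ntng2). Unc5c was called lower in some alternative fits, among them median ratio scaling (-0.38, limma, adjusted p = 0.045) and limma voom (-0.67, adjusted p = 0.0202).

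**Figure D2:**
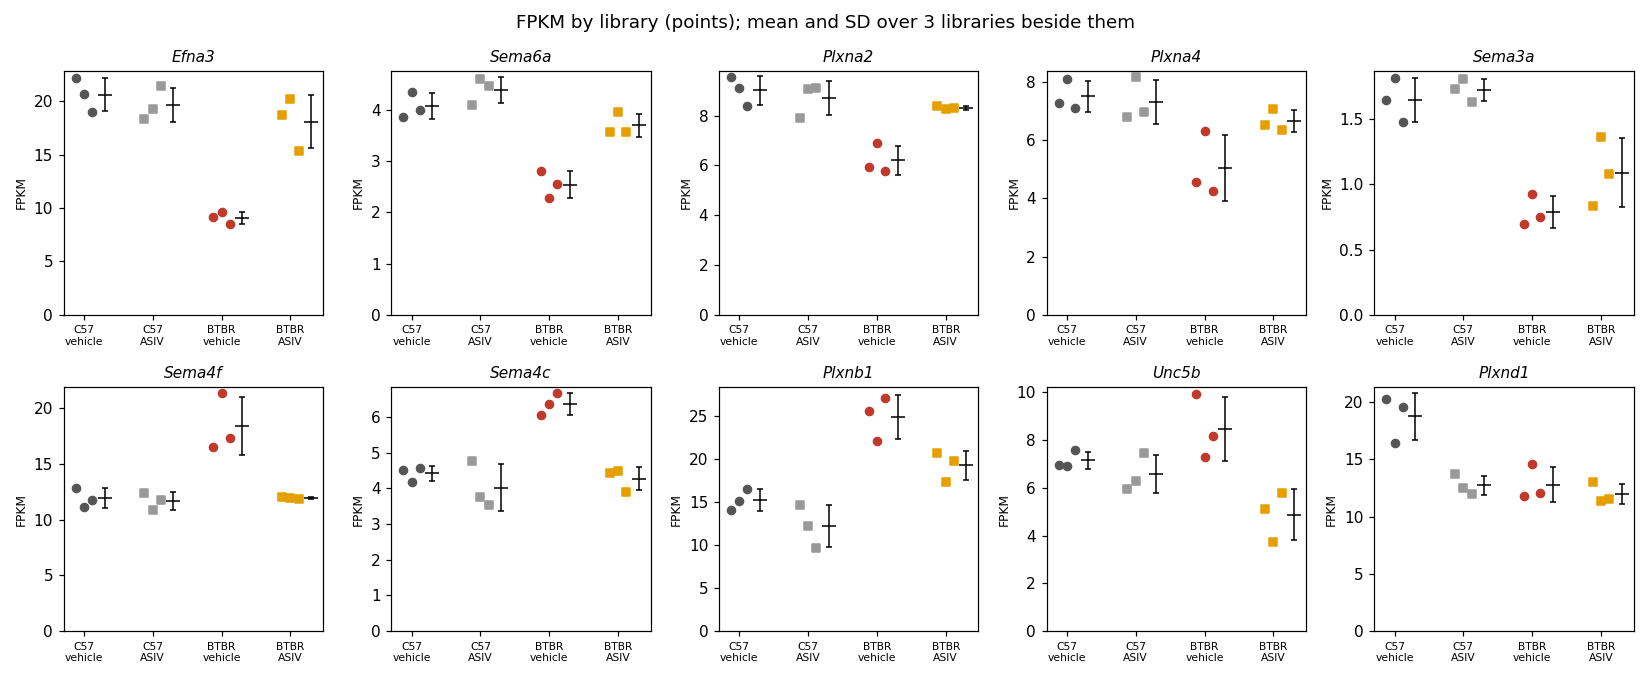
FPKM of 10 members in each library (points, linear axes from 0) with the mean and SD over 3 libraries beside each group. Efna3, Sema6a, Plxna2, Plxna4 and Sema3a are lowest in BTBR vehicle, Sema4f, Sema4c and Plxnb1 are highest there, and for Efna3 the BTBR ASIV libraries (15.4 to 20.2 FPKM) lie near the C57 libraries (18.3 to 22.1 FPKM).

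The upstream sequences of Efna3, Plxnb1 and Sema4f are given because Efna3 had the largest lower value under vehicle, Plxnb1 the largest higher value, and Sema4f moved opposite to Efna3 in each comparison that called both. Each is 200 bases long, ends 50 bases before the RefSeq transcription start and reads 5′ to 3′ on the strand of the gene (GRCm38.p6, the build of mm10). Capitals mark matches to the GC box, GGGCGG or its complement CCGCCC, to which Sp1-type factors are known to bind.
Efna3, chr3:89322990-89323189, minus strand: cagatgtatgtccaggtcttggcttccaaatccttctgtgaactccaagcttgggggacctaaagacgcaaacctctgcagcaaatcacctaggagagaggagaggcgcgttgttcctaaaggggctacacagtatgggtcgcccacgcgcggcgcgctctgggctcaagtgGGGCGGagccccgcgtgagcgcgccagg
Plxnb1, chr9:109095186-109095385, plus strand: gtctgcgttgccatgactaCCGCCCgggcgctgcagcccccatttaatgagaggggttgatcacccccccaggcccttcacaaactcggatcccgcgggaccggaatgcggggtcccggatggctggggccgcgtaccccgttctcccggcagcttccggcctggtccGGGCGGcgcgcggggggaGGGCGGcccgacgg
Sema4f, chr6:82939820-82940019, minus strand: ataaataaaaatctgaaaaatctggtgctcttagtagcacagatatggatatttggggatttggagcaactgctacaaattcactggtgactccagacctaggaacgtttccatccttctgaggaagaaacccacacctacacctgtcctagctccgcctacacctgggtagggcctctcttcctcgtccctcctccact

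The Efna3 window holds 1 GC box, 14 CpG dinucleotides and 60.5% G or C, the Plxnb1 window 3 GC boxes, 23 CpG and 72.5%, and the Sema4f window 0 GC boxes, 3 CpG and 47.5%. RefSeq promoter entries matched 61 of the 71 members. A GC box on either strand was found in 45 of their 77 windows (58.4%), beside 32% of 21262 windows of coding genes of the same length. The CCAAT box (CCAAT or ATTGG) was found in 24.7% against 29.8%, the E-box CACGTG in 2.6% against 4.8%, and the cyclic AMP element TGACGTCA in 0 windows against 1%. None of the 3 sequences printed holds a CCAAT box, this E-box or this element. These matches describe letters in a window and were not related to the levels.

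Called members differed in gene length. The 15 lower members had a median length from gene start to gene end of 364 kb, the 7 higher members one of 13.6 kb, and the 46 others one of 63.7 kb. Over all genes the called lower genes had a median of 24.7 kb and the called higher genes 15.9 kb. Of 19 members of at least 200 kb, 8 were lower and 0 higher (42.1% lower), while 36.6% of the 786 tested genes of that length were lower and 6.4% higher. Among the 49 members under 200 kb, 7 were higher and 7 lower (14.3% each). Of the 12783 tested genes under 200 kb, 23.3% were higher and 19.9% lower. Across the 68 members the correlation of log2 length with the strain difference was -0.42, beside -0.08 across all genes, a description of genes that share the same libraries. The long members of the lower group were Epha6 (952049 bases), Slit3, Unc5d, Robo2, Sema3a, Plxna4, Ntng1 and Sema6d.

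The values of the long members varied within the strain. Relative to the mean of C57 vehicle, the median log2 value of the 19 long members was -0.34, -0.10 and -0.37 in the 3 BTBR vehicle libraries and -0.25, -0.08 and -0.07 in the 3 BTBR ASIV libraries. Over all 786 genes of this length the BTBR vehicle libraries had -0.31, -0.09 and -0.29. The second BTBR vehicle library was therefore closer to C57 than the other 2, for the members and for all long genes. When each library was corrected for exon length, GC content and gene length over all genes, 21 members were called. In that fit, added after seeing the data, Epha6 (-0.44), Unc5d (-0.33), Robo2 (-0.39), Sema3a (-0.29), Plxna4 (-0.30) and Ntng1 (-0.46) were still called, each with a smaller value (limma, adjusted p = 0.017 to 0.0434). Slit3 (-0.17, limma, adjusted p = 0.132) and Sema6d (0.03, adjusted p = 0.805) were not.

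**Figure D3:**
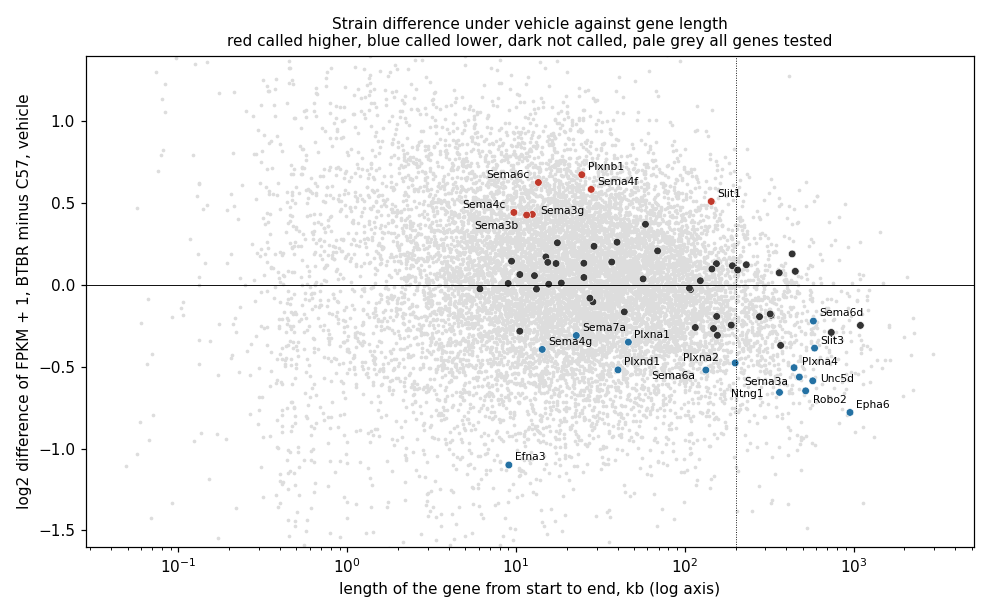
Log2 difference of FPKM + 1 between BTBR and C57 under vehicle against the length of the gene in kb (log axis), 1 point per gene, with tested genes in pale grey and the 68 members on top (red higher, blue lower, dark not called); the dotted line marks 200 kb and 175 genes lie outside the range shown. All 8 called members beyond the line are lower, whereas Efna3 is lower with a short gene.

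Of the 22 calls under vehicle, 12 held under every alternative run for them: Efna3, Epha6, Plxna2, Plxna4, Plxnb1, Plxnd1, Sema3a, Sema4c, Sema4f, Sema6a, Ntng1 and Unc5d. The other 10 lost the call in at least 1 setting. Leaving out the third BTBR vehicle library left 14 calls and removed Sema7a, Slit1, Plxna1, Sema6c, Sema6d, Robo2, Sema4g and Sema3g. Leaving out the first C57 vehicle library left 15 and removed Sema7a, Plxna1, Sema6c, Sema6d, Robo2, Sema3g and Sema3b. Robo2 stood at -0.53 and -0.57 in these fits (limma, adjusted p = 0.0546 and 0.0528), and at -0.55 without the first BTBR vehicle library (adjusted p = 0.0503).

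The comparison of the strains under ASIV asked which differences were present when both strains received the compound. Of the 68 members 1 was called, Plxnb1, where 2.53% of all genes were called. Plxnb1 measured 14.7, 12.3 and 9.73 FPKM in C57 ASIV and 20.7, 17.4 and 19.8 FPKM in BTBR ASIV. The groups did not overlap, and the log2 difference was 0.63 ± 0.13 (limma, adjusted p = 0.0275). Its size was close to the 0.67 found under vehicle. The call was lost in 6 of 19 alternatives, among them the fits without the second or the third C57 ASIV library or without the first or the third BTBR ASIV library (adjusted p = 0.0991 to 0.106). Without the second BTBR ASIV library 3 members were called, Plxnb1 with Epha8 (0.95, limma, adjusted p = 0.0136) and Sema3a (-0.48, adjusted p = 0.0498). Groups were separate without a call in further members, 16 (23.5%) in all against 26.2% of genes. Sema3a had 1.72 ± 0.09 FPKM in C57 ASIV and 1.09 ± 0.26 FPKM in BTBR ASIV (SD, n = 3; -0.39 ± 0.11, limma, adjusted p = 0.0961), and Ntng1 had 2.47 ± 0.23 and 1.63 ± 0.58 FPKM (-0.42 ± 0.17, adjusted p = 0.206).

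The comparison of ASIV with vehicle in BTBR asked how the compound moved these genes in the model strain. Of the 68 members 6 rose and 7 fell (19.1%), where 29.1% of all genes were called (13.7% higher, 15.4% lower). In 16 members (23.5%) the groups were separate, against 39.1% of all genes. The balance of directions depended on the scaling. It was 10 higher and 4 lower with mitochondrial genes left out of the scaling, 8 and 6 with median ratio scaling, 9 and 6 with correction for exon length and GC content, 6 and 4 as TPM, and 4 and 7 with quantile normalization. The BTBR vehicle libraries also serve the strain comparison above, so a member with an extreme mean in those 3 libraries enters both comparisons with opposite signs, and the 2 sets of values are given side by side without a test.

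Efna3 rose from 9.13, 9.62 and 8.49 FPKM in BTBR vehicle to 18.7, 20.2 and 15.4 FPKM in BTBR ASIV. Every BTBR ASIV library exceeded every BTBR vehicle library, and the log2 difference was 0.91 ± 0.11 (limma, adjusted p = 0.000176). Against C57 ASIV, with 18.3, 19.3 and 21.4 FPKM, BTBR ASIV stood at -0.12 ± 0.11 (limma, adjusted p = 0.557).

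Plxna2, Plxna4 and their ligand Sema6a rose as well. Plxna2 measured 8.40, 8.25 and 8.30 FPKM in BTBR ASIV, a log2 difference of 0.38 ± 0.09 from the BTBR vehicle values given above (limma, adjusted p = 0.00803). Sema6a measured 3.57, 3.96 and 3.56 FPKM (0.41 ± 0.09, limma, adjusted p = 0.00521). Plxna4 measured 6.51, 7.06 and 6.35 FPKM (0.35 ± 0.12, limma, adjusted p = 0.0458). The call of Plxna4 was lost in 10 of 19 alternatives, among them TPM, quantile normalization and no filter. Plxna2 and Sema6a kept the call in every alternative run for them. All 3 genes were separate from BTBR vehicle. Under vehicle their strain differences had been -0.48, -0.52 and -0.51 in the same order. Sema4g rose too, from 3.26, 2.31 and 2.63 FPKM to 5.79, 4.33 and 3.86 FPKM (0.60, limma, adjusted p = 0.0096).

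Class 4 semaphorins Sema4f and Sema4c fell. Sema4f measured 12.03, 11.94 and 11.89 FPKM in BTBR ASIV, below each of its BTBR vehicle values (16.5 to 21.4 FPKM), with a log2 difference of -0.58 ± 0.10 (limma, adjusted p = 0.0014). Sema4c measured 4.43, 4.47 and 3.91 FPKM, a difference of -0.48 ± 0.10 (limma, adjusted p = 0.00391). Their strain differences under vehicle had been 0.58 and 0.44. Plxnb1 did not pass, at -0.35 ± 0.13 (limma, adjusted p = 0.0633), although its groups were separate.

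Other members moved in BTBR without a called strain difference. Unc5b, a netrin receptor that is also known in vessels, fell from 9.91, 7.31 and 8.16 FPKM to 5.12, 3.72 and 5.80 FPKM (-0.69 ± 0.14, limma, adjusted p = 0.00309). The groups were separate, and BTBR ASIV also lay below C57 vehicle (6.90 to 7.57 FPKM). Summed endothelial markers were 124.9 to 171.0 FPKM in BTBR vehicle and 107.7 to 144.9 FPKM in BTBR ASIV. Within the 10 genes 2 rose and 3 fell (50% called, beside 29.1% of all genes). Their part in the value of Unc5b was not tested. Ntng2, the second netrin-G, fell from 18.4, 15.1 and 18.8 FPKM to 11.3, 10.7 and 9.65 FPKM (-0.67, limma, adjusted p = 0.0192). It shares 14.0% of its exon bases with 6530402F18Rik on the same strand.

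Ephb6 measured 48.4, 54.0 and 53.1 FPKM in BTBR vehicle and 47.1, 39.1 and 27.4 FPKM in BTBR ASIV (-0.48, limma, adjusted p = 0.0451). The 3 BTBR ASIV values were widely spread, and without the third library the difference was -0.27 (adjusted p = 0.169). Epha8 measured 1.07, 1.03 and 0.984 FPKM in BTBR vehicle and 2.73, 1.11 and 2.85 FPKM in BTBR ASIV (0.62, limma, adjusted p = 0.0463). The first and the third BTBR ASIV libraries were high and the second was at the level of vehicle. Without the first the adjusted p was 0.15, and without the third it was 0.163. The striatal marker sum was 281.1, 75.5 and 519.9 FPKM in the same 3 libraries, and none of its 10 genes was called. The third C57 vehicle library, the highest of its group in Epha8 at 1.83 FPKM, was also the highest of its group in that sum (260.0 FPKM), whereas the third C57 ASIV library had 0.999 FPKM with a sum of 311.5 FPKM. The part of striatal tissue in the Epha8 value was not tested. Robo3 (-0.62, limma, adjusted p = 0.0458) and Ephb1 (-0.35, adjusted p = 0.0465) fell with overlapping groups.

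Of the 13 calls, 6 held under every alternative run: Efna3, Sema4f, Sema4c, Sema6a, Plxna2 and Unc5b. Without the second BTBR vehicle library 18 members were called, Robo2 (0.51, limma, adjusted p = 0.0302), Epha6 (0.70, adjusted p = 0.0188) and Ntng1 (0.48, adjusted p = 0.047) among them. Without the third BTBR ASIV library 7 members were called, and Ephb6, Ntng2, Ephb1, Plxna4, Robo3 and Epha8 lost the call. The same 6 lost it without the first BTBR vehicle library, where 11 members were called in all. Ntng2 without those libraries stood at -0.61 and -0.63 (limma, adjusted p = 0.0625 and 0.0521). Epha6 missed the threshold with 2.03, 3.11 and 3.20 FPKM in BTBR ASIV (0.54 ± 0.19, limma, adjusted p = 0.0518). Several alternative fits with all 12 libraries called it higher. Among them were a pseudocount of 0.1 (0.77, limma, adjusted p = 0.0459), median ratio scaling (0.54, adjusted p = 0.0484) and limma voom (0.82, adjusted p = 0.0419). Of the listed midline genes other than Ephb1, Robo1 came nearest to a call (0.40 ± 0.15, limma, adjusted p = 0.0586). Robo1 was called higher without the second BTBR vehicle library (0.57, limma, adjusted p = 0.00932). The same held with mitochondrial genes left out of the scaling (0.43, adjusted p = 0.0448), array weights (0.50, adjusted p = 0.0417) and voom (0.60, adjusted p = 0.031). Dcc stood at 0.07 ± 0.14 (limma, adjusted p = 0.722). The 55 members not called ranged from -0.48 (Ntn5) to 0.54 (Epha6). Among them Efna2 was called higher in some alternative fits, such as TPM (0.40, limma, adjusted p = 0.0438) and median ratio scaling (0.39, adjusted p = 0.0492).

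**Figure D4:**
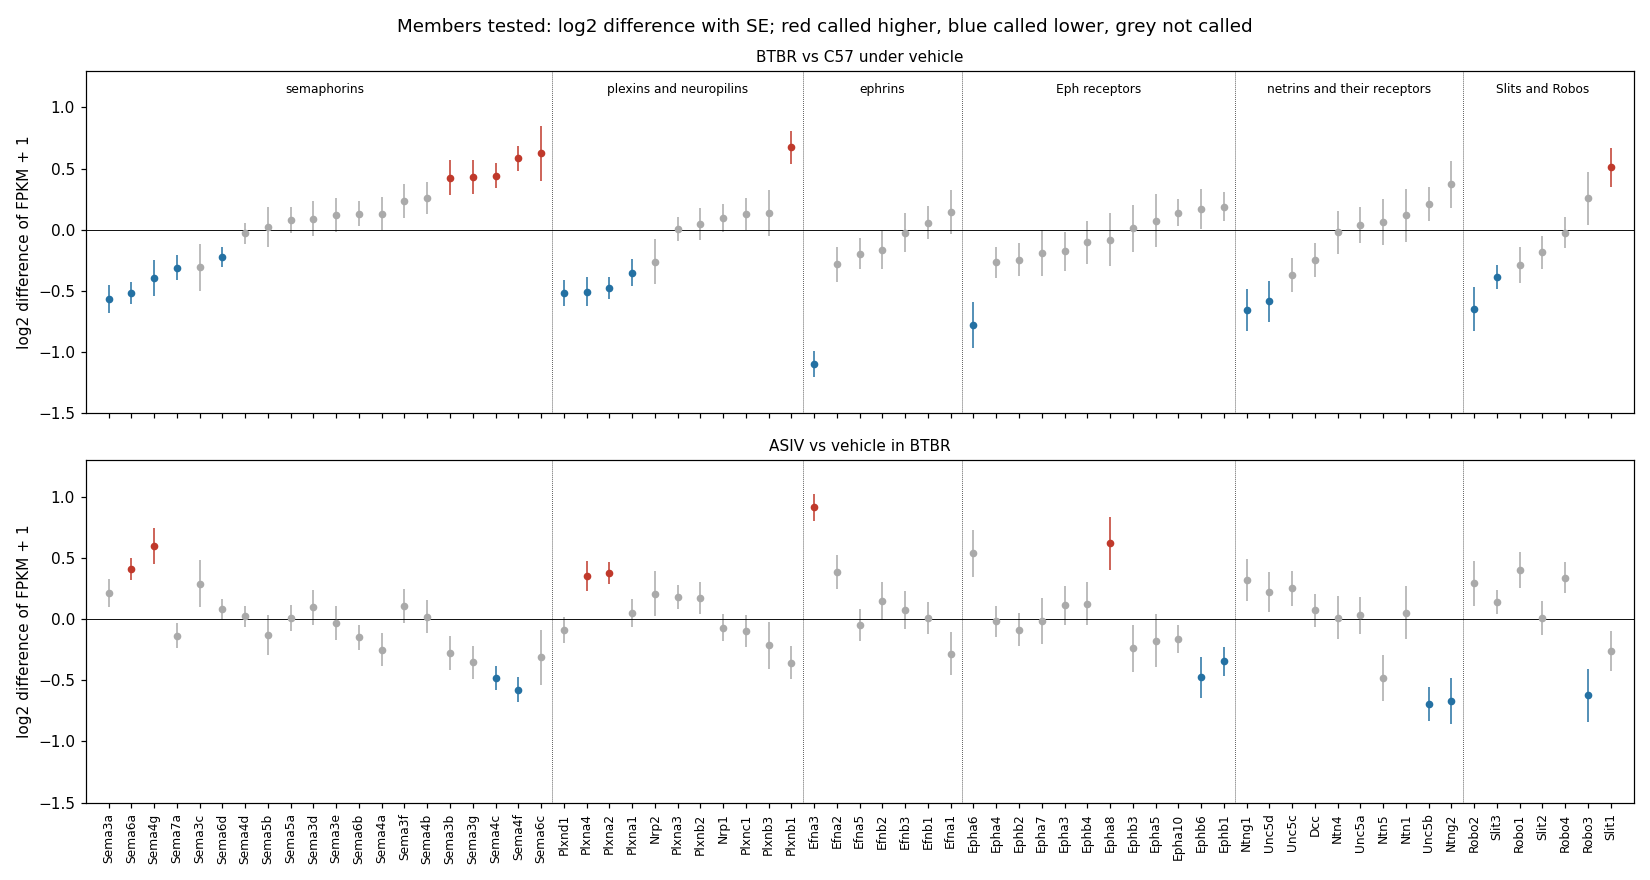
Log2 difference of FPKM + 1 with the model's standard error for the 67 tested guidance genes other than Unc50, ordered within each family by the strain difference under vehicle (upper panel) and shown in the same order for ASIV against vehicle in BTBR (lower panel); red is called higher, blue called lower, grey not called. Efna3 stands at -1.10 above and 0.91 below, and both panels use the BTBR vehicle libraries.

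In C57 mice no member was called for ASIV against vehicle, and no gene of the whole table was called either (0%, limma). At an unadjusted p under 0.05 there were 417 genes (3.07%), and a test on recovered fragment counts with limma voom also called 0 genes. Groups were separate in 7 members (10.3%) against 13.1% of all genes. The 3 members with the smallest p were Plxnd1, Plxnb1 and Sema7a, each with an adjusted p of 1. Plxnd1 measured 20.3, 16.4 and 19.6 FPKM in C57 vehicle and 13.7, 12.5 and 11.99 FPKM in C57 ASIV (-0.52 ± 0.11). These groups were separate, and the C57 ASIV values lay within the range of the 6 BTBR libraries (11.4 to 14.6 FPKM). Plxnb1 stood at -0.31 ± 0.13 and Sema7a at -0.22 ± 0.10. Efna3 stood at -0.06 ± 0.11, with 19.7 ± 1.59 FPKM in C57 ASIV (SD, n = 3).

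The interaction of strain and compound tested whether the response to ASIV differed between strains. It was called in 3 of 68 members (4.4%), where 14.3% of all genes were called. The response of Efna3 was larger in BTBR than in C57 by 0.98 ± 0.15 on the log2 scale (limma, adjusted p = 0.00267), that of Sema4f was lower by -0.55 ± 0.14 (adjusted p = 0.0241), and that of Plxna2 was larger by 0.42 ± 0.13 (adjusted p = 0.0427). Efna3 kept the call in all 24 alternatives (0.90 to 1.08). Sema4f lost it in 3, when the second or the third C57 vehicle library or the first C57 ASIV library was left out (adjusted p = 0.0693, 0.0567 and 0.0624). Plxna2 lost it in 15 of 24 (0.31 to 0.49), among them the fits without any 1 of 10 libraries. The responses of Unc5b (-0.58, adjusted p = 0.0667) and Sema4g (0.61, adjusted p = 0.067) did not pass. Without the second BTBR vehicle library 6 members were called, with Plxnd1 (0.53, limma, adjusted p = 0.0317), Plxna4 (0.54, adjusted p = 0.0245) and Unc5b (-0.67, adjusted p = 0.0448) in addition.

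Other genes of guidance pathways were read from 3 lists. Of 28 receptor partners and co-receptors, 2 were higher and 12 lower in BTBR under vehicle (50% called, beside 43.1% of all genes tested; median -0.23, beside 0.01). Dscaml1, an adhesion molecule related to a netrin receptor, had 8.24 ± 0.56 FPKM in C57 vehicle and 3.46 ± 0.25 FPKM in BTBR vehicle (SD, n = 3), a log2 difference of -1.05 (limma, adjusted p = 5.81e-06). L1cam, which forms complexes with neuropilin, stood at -0.74 (adjusted p = 0.000175), and Rgma, a ligand of neogenin, at -0.85 (adjusted p = 0.000359). Ryk, a Wnt receptor of callosal axons, was higher (0.68, adjusted p = 0.000482). With ASIV in BTBR 5 genes of this list rose and 1 fell (21.4%, beside 29.1% of all genes), with Dscaml1 at 0.82, L1cam at 0.47, Rgma at 0.95 and Ryk at -0.44, again over the shared BTBR vehicle libraries.

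Of 50 signal transduction genes, 8 were higher and 6 lower under vehicle (28%, beside 43.1% of all genes; median 0.01). Srgap3, a GTPase-activating protein that binds Robos, had 40.7 ± 1.46 FPKM in C57 vehicle and 23.8 ± 1.76 FPKM in BTBR vehicle (SD, n = 3; -0.75, limma, adjusted p = 0.000599). Ablim1, an actin-binding protein, was lower under vehicle (-0.50, adjusted p = 0.000523) and under ASIV (-0.38, adjusted p = 0.0299). Cdk5 and Dpysl3, both known in semaphorin signalling, were higher (0.41 and 0.46, adjusted p = 0.00231 and 0.00245). With ASIV in BTBR 3 genes of this list rose and 5 fell (16%, beside 29.1%).

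Of 18 genes of callosal projection and axon growth, 4 were higher and 5 lower under vehicle (50%, beside 43.1% of all genes; median -0.08). Emx1 (-0.63, limma, adjusted p = 0.000948) and Zeb2 (-0.56, adjusted p = 0.00152) were lower, and Marcks, a substrate of protein kinase C in growth cones, was higher (0.58, adjusted p = 0.00266). The summed cortical excitatory markers, a list that includes Emx1, were 1059.3 to 1154.9 FPKM in C57 vehicle and 816.2 to 960.7 FPKM in BTBR vehicle. With ASIV in BTBR 2 genes of the callosal list rose and 1 fell (16.7%, beside 29.1%).

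Cell type markers were counted in the same way. Under vehicle 43.1% of all genes tested were called (22.3% higher, 20.8% lower). The 12 cortical excitatory markers had 0 higher and 4 lower (33.3%), and the 10 striatal markers had no call. The 10 pan-neuronal markers had 1 higher and 3 lower (40%). Their sums were 1131 to 1228.6 FPKM in C57 and 818.1 to 1035 FPKM in BTBR. Astrocyte markers had 2 higher and 3 lower of 10 (50%), and microglia markers 3 and 3 of 10 (60%). Oligodendrocyte precursor markers had 2 higher and 0 lower of 6 (33.3%), and oligodendrocyte and myelin markers 3 and 2 of 14 (35.7%). Endothelial markers had 2 higher and 2 lower of 10 (40%), and mural and meningeal fibroblast markers 1 and 2 of 8 tested (37.5%). The part of cell content in the members' differences was not tested.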

How the data were processed

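Total RNA of the mPFC was sequenced after Trizol extraction with standard Illumina libraries, per the labels' protocols. The authors deposited 1 table of FPKM per gene and library. HISAT2 2.0.5 and mm10 are named in the submitters' processing notes; the counter, strand, filters and annotation were not given in the sources used here. Gene identifiers were matched to GENCODE M21 (17265 matched, 18 did not). FPKM times exon length gave whole fragments within 0.02 for 97.6 to 98.0% of values under 50 fragments, which gave the depths; 95.6 to 95.8% of all values were whole. Replicates differed by more than counting error (chi-square per gene 8.07 to 46.6).

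Genes reaching 1 FPKM in 3 or more of the 12 libraries were analysed as log2(FPKM + 1) with limma 3.58.1 in R 4.3.3 (lmFit, eBayes with trend and robust options, 4 group means, 8 residual degrees of freedom), with Benjamini-Hochberg adjustment over all genes tested in each of 5 comparisons. The same code was tested on simulated data. Joins used pandas 2.3.3 and numpy 2.4.6 in Python 3.11.15, and plots matplotlib 3.10.9. Alternatives covered the pseudocount (0.1), filters, scaling, exon length and GC content, library weights, the libraries in the fit, limma voom on recovered fragments (5815 genes called for the strains under vehicle), the replicate number as a block and each library left out. A correction for gene length as well was added after seeing the data.

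The members and gene lists were chosen with earlier results of these data known. Named were the 8 higher and the 8 lower called members with the largest differences and separate groups, 10 midline genes, the 3 smallest p in C57 and in the interaction, the extremes of level in each family, and up to 4 genes per pathway list, of which 1 is not reported here. Sema3e, Sema4d, Sema6d, Slit3, Plxna1, Plxna3, Plxnb2, Plxnb3, Plxnc1, Efna1, Efna2, Epha3, Robo3, Unc5c and Ntn5 were added after their values were seen, as counts, partners or limits required.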

Additional observations from a re-analysis of the deposited data

Results flagged for a closer look

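The response to ASIV differed between the strains, by the interaction term of limma with Benjamini-Hochberg adjustment, in 3 members. That is 4.4% of the 68 members tested, beside 14.3% of all genes. Efna3 differed by 0.98 on the log2 scale (adjusted p = 0.00267): it rose in BTBR in 3 of 3 libraries above every BTBR vehicle library, while the C57 groups overlapped. Sema4f differed by -0.55 (adjusted p = 0.0241): it fell in BTBR, with all 3 BTBR ASIV libraries below every BTBR vehicle library, while the C57 groups overlapped. Plxna2 differed by 0.42 (adjusted p = 0.0427): it rose in BTBR with separate groups, while the C57 groups overlapped. The interaction call of Plxna2 was lost in 15 of 24 alternatives, that of Sema4f in 3 and that of Efna3 in 0. In each gene it is the BTBR vehicle libraries that stand apart from the other 3 groups, and the same libraries had the lowest share of mitochondrial fragments.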

How the results depend on the processing

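The count of members called kept within 1.5 times its value in 81 of 100 alternative fits. The fits of ASIV in C57 are among these 81. There the count was 0 in every fit, with at most 1 gene called in the whole table, so they say nothing about stability. It was 14 for the strains under vehicle with a filter of 5 FPKM, which left 35 members, and 14 to 22 with 1 library left out. For the strains under ASIV it was 0 as TPM, 0 with only the libraries compared, 5 with array weights, 2 with voom, and 0 to 3 with 1 library left out. For ASIV in BTBR it was 8 without a filter, 8 with only the libraries compared, and 7 to 18 with 1 library left out. For the interaction it was 5 with voom and 1 to 6 with 1 library left out. Over all genes tested, array weights called 11.4% in place of 2.53% for the strains under ASIV, and a fit of only the libraries compared called 16.6% in place of 29.1% for ASIV in BTBR. The cause was not tested.

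Single values of named members kept direction and side of the threshold in 813 settings, lost the call in 96, gained it in 8 and turned sign in 28, the last only in members called in neither fit. Sema6d, named later and called lower between strains, turned to 0.03 with length, GC content and gene length corrected. With quantile normalization the values in BTBR under ASIV turned to -0.0227 for Dcc, -0.0562 for Slit2 and 0.0457 for Epha4. With length, GC content and gene length corrected, Dcc turned to 0.0867 between strains and to -0.0778 under ASIV, and Slit2 to -0.0845, as it did with length and GC content alone (-0.0707). Epha4 turned to 0.0237 with mitochondrial genes left out of the scaling and to 0.0291 with array weights. Efnb3 turned between strains to 0.0332 as TPM and to 0.0412 with array weights. With 1 library left out, the ranges were -0.0394 to 0.1548 (Dcc), -0.1665 to 0.2638 (Ntn1), -0.0862 to 0.1854 (Slit2), -0.1358 to 0.0456 (Nrp1), -0.0983 to 0.1236 (Epha4) and -0.0538 to 0.2622 (Efnb3) under ASIV in BTBR, and -0.0507 to 0.307 (Ntn1) and -0.1099 to 0.1036 (Efnb3) between strains.

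Replicate numbers were not taken to pair the libraries, and the values do not settle whether they do. Deviations of same-numbered libraries correlated at -0.172 to 0.279, over 0.1 in 8 of 18 pairs. Those of differently numbered libraries from different groups correlated at -0.370 to 0.225. Of the 12 libraries, 2 lay closest to their own number in all other groups at once. With the replicate number as a block 19, 1, 13, 0 and 3 members were called, for the strain difference under vehicle and with the compound, the response of BTBR and of C57, and the interaction, in that order. Sema6c, Sema6d, Sema4g, Ephb1 and Plxna2 lost a call under the block, and Epha6 (ASIV in BTBR) and Unc5b (interaction) gained one.

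With 3 libraries a group, small differences of genes near 1 FPKM were not resolved. The pseudocount of 1 shrinks their fold changes (with 0.1, Sema3a between strains under vehicle was -0.97 and Ntng1 -1.04). Differences between the strains under vehicle rest on the same BTBR vehicle libraries as the response of BTBR to ASIV.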
